A study of Homo sapiens with 6 samples.

Results

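NRF2 (gene symbol NFE2L2), its inhibitor KEAP1 and 8 inducible NRF2 target genes (SLC7A11, GCLC, GCLM, TXNRD1, SRXN1, NQO1, HMOX1 and OSGIN1) were examined in HCT116, a long-established line of human colorectal cancer cells, after overexpression of MST3. The 10 genes were taken by symbol from a table of 58938 entries, and each matched 1 entry. All 10 were among the 13036 genes whose mean reached 1 FPKM (fragments per kilobase of gene, scaled per library), which were the genes tested. RNA sequencing libraries came from 3 samples given a vector, labelled wild type, and 3 given a plasmid that overexpresses MST3, the GCKIII kinase that STK24 encodes. Both groups were transfected with a lipid reagent at 60% density, received fresh medium at 6 hours and were lysed for RNA at 30 hours. The sources used here do not name the promoter that drives MST3 on the plasmid. The labels do not say whether replicates 1 to 3 were separate cultures, and p-values therefore cover no more than the spread between these libraries, which may be technical. The series title links reactive oxygen species, the mitochondrial phosphatase PGAM5, MST3 and YAP.

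NRF2 is a bZIP transcription factor that is made continuously and, in unstressed cells, bound by KEAP1 and handed to a CUL3 and RBX1 ubiquitin ligase for degradation. Oxidants and electrophiles modify cysteines of KEAP1, and NRF2 then escapes, pairs with a small MAF protein (MAFF, MAFG or MAFK) and binds antioxidant response elements beside its targets, where BACH1 otherwise sits as a repressor. Since this switch acts on the NRF2 protein, the NFE2L2 mRNA need not move when the pathway is switched on, and the target mRNAs are its usual readout. PGAM5 is a known binding partner of KEAP1, which is the tie between this pathway and the series.

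The core of the antioxidant response element, written here as TGACNNNGC, was searched on both strands in RefSeq promoter windows (GRCh38.p14) that run from 250 bases before to 50 after an annotated start. Windows were found for 8 of the 10 genes, 11 windows in all, and 4 of these windows, from 3 genes (KEAP1, GCLM and TXNRD1), had a match, against 13.3% of the 35116 windows in the table. The matches are shown because they are the letters through which NRF2 and BACH1 are known to act, with the matched bases in capitals and the gene's own strand read 5′ to 3′. GCLM and a KEAP1 start hold the same 9 letters, TGACTAAGC, on the strand opposite to the gene.
GCLM, chr1:93909446-93909474, minus strand: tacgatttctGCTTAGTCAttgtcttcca
KEAP1, chr19:10502784-10502812, minus strand: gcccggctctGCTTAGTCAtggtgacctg
KEAP1, chr19:10502807-10502835, minus strand: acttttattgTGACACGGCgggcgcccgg
TXNRD1, chr12:104215670-104215698, plus strand: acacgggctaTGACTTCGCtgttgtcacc
TXNRD1, chr12:104286920-104286948, plus strand: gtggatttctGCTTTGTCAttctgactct
The GCLM match starts 34 bases upstream of the RefSeq start, the KEAP1 matches 31 and 54 bases upstream of the inner of 2 KEAP1 starts, and the TXNRD1 matches 99 and 102 bases upstream of 2 different starts. In GENCODE 29 the first TXNRD1 match lies upstream of the gene, and the other 4 touch an annotated exon of the gene named. A further TXNRD1 match, TGACGGAGC, begins 8 bases upstream of its outer start, reaches that start and touches an annotated exon. The AP-1 site TGANTCA, searched in the same way, was found for OSGIN1 alone, 97 bases upstream of its start, against 7.71% of all windows. Such a match describes the sequence and is no measure of binding in these cells. The windows of NFE2L2, SRXN1, NQO1, GCLC and OSGIN1 held no match to the antioxidant core, and HMOX1 and SLC7A11 had no window. Bases outside the windows were not searched, so the lack of a match does not mean that a gene lacks an element.

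The libraries held 17296201 to 17708029 recovered reads in the vector group and 15289213 to 17209736 in the MST3 group, and a gene count of 25099 to 25501 with vector against 27442, 25378 and 25125 with MST3 (replicates 1, 2 and 3). STK24, the overexpressed gene, measured 17.1, 17.4 and 17.4 FPKM with vector and 63.7, 72.2 and 76 FPKM with MST3, and it alone passed limma over all genes (adjusted p = 0.000998, 0.00767% of genes called). Of 8 colorectal epithelial markers 6 had a mean of at least 1 FPKM, summing to 1614 to 1664 FPKM in vector and 1531 to 1939 in MST3 libraries over the list, while VIL1 and LGALS4, markers of the differentiated gut, stood at 0.0112 and 0.0223 FPKM. The leukocyte list summed to at most 0.414 FPKM and the endothelial list to at most 0.27 in any library. The hepatocyte markers APOB and TTR were listed at 0 in all 6, while ALB had a mean of 0.0888 FPKM. Of 5 fibroblast markers COL1A1 alone reached 1 FPKM (mean 4.25).

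None of the 10 genes passed the test over all genes, and the differences of 9 of them had 95% intervals that include 0. On the log2(FPKM + 1) scale 4 were higher in the MST3 libraries (SRXN1, HMOX1, KEAP1 and OSGIN1) and 6 lower (GCLC, TXNRD1, NQO1, GCLM, SLC7A11 and NFE2L2), with a median difference of -0.050. Over all genes tested 46.6% were higher and 53.4% lower, and the median was -0.014. The smallest adjusted p by limma among the 10 was 0.719. At an unadjusted p under 0.05 there was 1, SRXN1, where 5.38% of all genes tested lay under that value. The groups did not overlap for 3 (SRXN1 higher, GCLC and TXNRD1 lower), against 11.9% of all genes tested (5.19% higher and 6.7% lower).

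**Figure D1:**
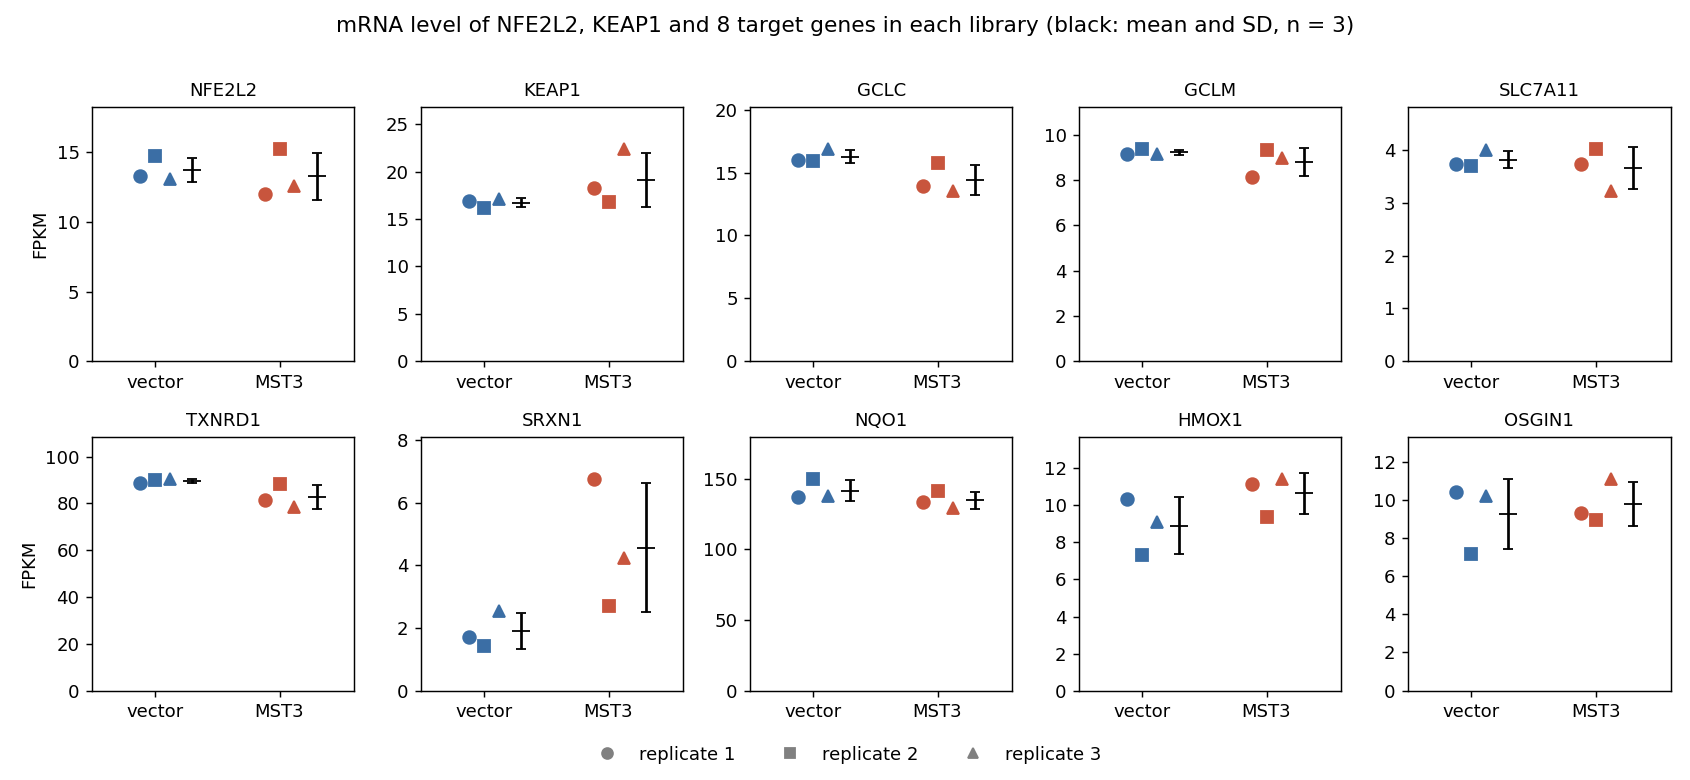
Level of each gene in FPKM (vertical axes, each starting at 0) in the 3 vector libraries (blue) and the 3 MST3 libraries (red), with symbols for the replicates and the group mean and SD (n = 3) in black. SRXN1 spans 1.43 to 2.55 FPKM in vector and 2.69 to 6.76 in MST3 libraries, while the other genes lie closer together.

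The level of the mRNAs spanned from NQO1, at a mean of 138.2 FPKM over the 6 libraries and at or above 98.4% of genes tested, to SRXN1 at 3.23 FPKM, the percentile 32.1. TXNRD1 followed NQO1 at 86.3 FPKM, and the ranges of these 2 did not overlap each other or any other member. KEAP1 (17.9), GCLC (15.3) and NFE2L2 (13.5) formed the next step, with ranges that overlapped between neighbours, and HMOX1 (9.78), OSGIN1 (9.52) and GCLM (9.01) the step after it, again overlapping. SLC7A11 (3.74) and SRXN1 overlapped at the lower end. FPKM is per length of gene, which allows a rough comparison between genes. It corrects neither for base composition nor for reads in stretches shared with another gene. The place of SRXN1 is the least certain, since 2292 bp of its 2698 bp of exon sequence are shared.

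The regulator NFE2L2 (ENSG00000116044; chromosome 2, 177227595 to 177392697, minus strand, GRCh38) measured 13.3, 14.7 and 13.1 FPKM with vector and 12, 15.2 and 12.6 FPKM with MST3. The highest MST3 library lay above and the lowest below every vector library, so the MST3 range enclosed the other. The log2 difference was -0.049 (SE 0.11, 95% interval -0.30 to 0.20; adjusted p = 0.896 by limma), which bounds the fold between 0.813 and 1.15 on that scale. The mean was 1425 reads in vector and 1338 reads in MST3 libraries. Its exons share 54 bp with AGPS and 190 bp with AC079305.1 (mean 0.883 FPKM), both on the opposite strand. They share 1054 bp with AC019080.1 (mean 0.603 FPKM) on its own strand. Neither the strand setting nor the treatment of shared reads is given in the labels.

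KEAP1 (ENSG00000079999; chromosome 19, 10486120 to 10503741, minus strand), the substrate adaptor that holds NRF2 for degradation, measured 16.9, 16.2 and 17.1 FPKM with vector and 18.2, 16.8 and 22.3 FPKM with MST3. MST3 replicate 3 stood above all others, and MST3 replicate 2 lay within the vector range. The log2 difference was 0.17 (SE 0.11, 95% interval -0.091 to 0.44; adjusted p = 0.719 by limma), and it was 0.061 without MST3 replicate 3. The ratio of KEAP1 to NFE2L2, both in FPKM, came to 1.27, 1.1 and 1.31 with vector and to 1.52, 1.1 and 1.77 with MST3. The groups overlapped in this ratio, which was lowest in replicate 2 of either group. The longest transcripts of KEAP1 and NFE2L2 have GC contents of 60.3% and 45.6%. A trend with GC content, described below, differed between libraries, and the ratio was not corrected for it.

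Glutathione synthesis needs cystine, which SLC7A11 brings in as the light chain of the xCT exchanger, and the ligase of GCLC (catalytic) and GCLM (modifier) that joins cysteine to glutamate. SLC7A11 (ENSG00000151012; chromosome 4, 138164097 to 138242349, minus strand) measured 3.75, 3.7 and 4 FPKM with vector and 3.74, 4.02 and 3.23 FPKM with MST3. MST3 replicate 3 was the lowest and MST3 replicate 2 the highest of the 6. Its log2 difference was -0.050 (SE 0.090, 95% interval -0.26 to 0.16). The ratio of SLC7A11 to its heavy chain SLC3A2, in FPKM, averaged 0.0971 ± 0.00184 with vector and 0.0888 ± 0.0203 with MST3 (SD, n = 3).

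GCLC (ENSG00000001084; chromosome 6, 53497341 to 53616970, minus strand) measured 16, 16 and 16.8 FPKM with vector and 13.9, 15.8 and 13.5 FPKM with MST3. All MST3 values lay below all vector values, though MST3 replicate 2 fell just under the vector range. The log2 difference was -0.17 (SE 0.085, 95% interval -0.37 to 0.034), with an unadjusted p = 0.091 and an adjusted p = 0.719 by limma. The exact two-sided permutation p was 0.1, below which 3 against 3 libraries cannot go. GCLM (ENSG00000023909; chromosome 1, 93885205 to 93909456, minus strand) measured 9.16, 9.35 and 9.14 FPKM with vector and 8.13, 9.31 and 8.98 FPKM with MST3, with MST3 replicate 1 lowest and MST3 replicate 2 inside the vector range. Its log2 difference was -0.061 (SE 0.078, 95% interval -0.24 to 0.12). The GCLC to GCLM ratio, in FPKM, averaged 1.76 ± 0.0699 with vector and 1.64 ± 0.113 with MST3 (SD, n = 3), so the catalytic subunit was the more abundant mRNA in both groups.

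In the thioredoxin branch, TXNRD1 encodes the cytosolic reductase that recharges thioredoxin, and SRXN1 encodes sulfiredoxin, which restores peroxiredoxins whose cysteine has been over-oxidised. TXNRD1 (ENSG00000198431; chromosome 12, 104215779 to 104350305, plus strand) measured 88.9, 89.9 and 90.5 FPKM with vector and 81.5, 88.5 and 78.6 FPKM with MST3. The vector libraries were close together, and all 3 MST3 libraries lay under them. The log2 difference was -0.12 (SE 0.085, 95% interval -0.32 to 0.084; adjusted p = 0.726 by limma, exact permutation p = 0.1). TXNRD1 rested on a mean of 10470 reads per vector library, the most of the 10 genes.

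SRXN1 (ENSG00000271303; chromosome 20, 646615 to 653370, minus strand) measured 1.73, 1.43 and 2.55 FPKM with vector and 6.76, 2.69 and 4.24 FPKM with MST3. The groups did not overlap, but MST3 replicate 2 exceeded vector replicate 3 by little, and MST3 replicate 1 stood far above the rest. The ratio of means was 2.4 and the log2 difference 0.89 (SE 0.27, 95% interval 0.26 to 1.53). Its unadjusted p was 0.0124 by limma, rank 137 of 13036, and its adjusted p = 0.719, while the exact permutation p was 0.1, the smallest possible. The values rested on a mean of 89.3 reads in vector and 204 reads in MST3 libraries, the fewest of the 10 genes. Without MST3 replicate 1 the log2 difference was 0.62 (unadjusted p = 0.0291 by limma). Without MST3 replicates 1 and 3, a fit added after the data were seen, it was 0.36. Those replicates held the highest SRXN1 values, so a smaller difference was fixed in advance. That fit left MST3 replicate 2 alone against the vector group. MST3 replicate 1 was also the library with the fewest reads and the most genes detected, and the part of this in the SRXN1 value was not tested. SRXN1 expressed per TXNRD1 (FPKM ratio) averaged 0.0212 ± 0.00632 with vector and 0.0558 ± 0.0264 with MST3 (SD, n = 3).

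The count of SRXN1 carries a further uncertainty. Of its 2698 bp of exon sequence 2292 bp are shared, on the same strand, with AL121758.1, a second annotated protein-coding gene that runs through it. AL121758.1 was listed at 0.105, 0 and 0.0211 FPKM in vector and at 0.0924, 0 and 0 FPKM in MST3 libraries. How reads in the shared stretch were assigned is not stated, so the SRXN1 level may be understated if such reads were set aside. Among the other targets the longest shared stretches were 865 bp of SLC7A11 opposite SLC7A11-AS1, 575 bp of NQO1 opposite AC092115.2, 529 bp of GCLC with AL033397.1 and 481 bp of OSGIN1 with AC009119.2, and these partners had means of up to 0.26 FPKM.

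NQO1, the quinone reductase often used as the reference target of NRF2, showed no difference beyond the spread between libraries (ENSG00000181019; chromosome 16, 69706996 to 69726951, minus strand). It measured 137, 150 and 138 FPKM with vector and 133, 142 and 129 FPKM with MST3, with replicate 2 the highest in each group and groups that overlapped. The log2 difference was -0.071 (SE 0.089, 95% interval -0.28 to 0.14; adjusted p = 0.809 by limma), a fold between 0.824 and 1.1 on that scale. The interval of this most abundant target, with a mean of 8009 reads per vector library, excludes a change of the size measured for SRXN1. The same held for every other member apart from SRXN1, the highest upper limit being 0.55 for HMOX1.

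HMOX1 (ENSG00000100292; chromosome 22, 35380361 to 35394214, plus strand) encodes haem oxygenase 1, which opens haem into biliverdin, iron and carbon monoxide, and it is a known target of BACH1 repression. It measured 10.3, 7.3 and 9.08 FPKM with vector and 11.2, 9.38 and 11.4 FPKM with MST3. MST3 replicates 1 and 3 lay above the vector range and MST3 replicate 2 within it. The log2 difference was 0.24 (SE 0.13, 95% interval -0.070 to 0.55; adjusted p = 0.719 by limma). With single libraries left out it ranged from 0.12 without vector replicate 2 to 0.35 without vector replicate 1. OSGIN1 (ENSG00000140961; chromosome 16, 83948282 to 83966332, plus strand), a growth inhibitor induced by oxidative stress, measured 10.4, 7.17 and 10.2 FPKM with vector and 9.31, 8.93 and 11.1 FPKM with MST3. Vector replicate 2 was the lowest for both genes, and the groups overlapped for both. The OSGIN1 log2 difference was 0.083 (SE 0.15, 95% interval -0.27 to 0.43), and it was -0.074 without vector replicate 2.

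**Figure D2:**
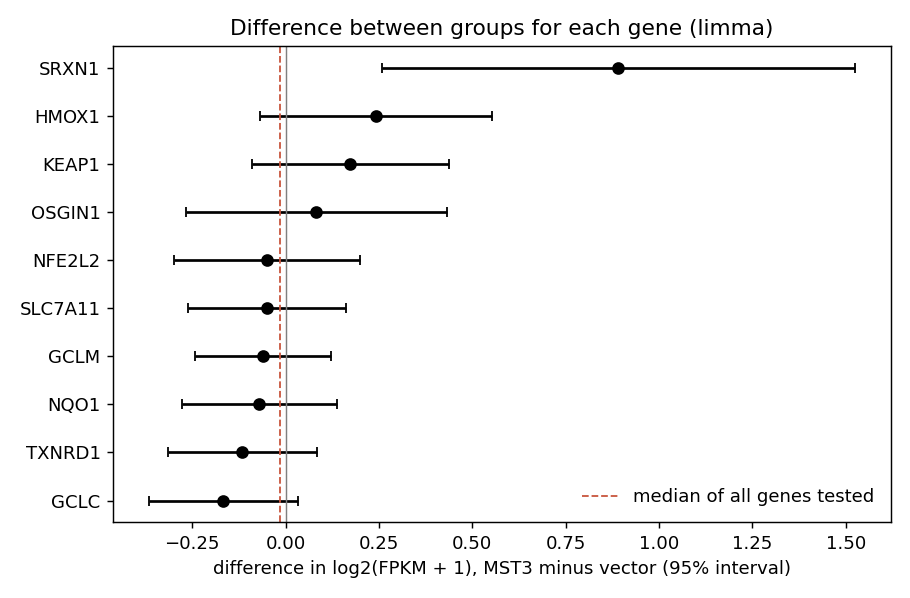
Difference in log2(FPKM + 1), MST3 minus vector, for each gene, with its 95% interval from limma (n = 3 per group). A dashed line marks the median of all genes tested (-0.014), and SRXN1 alone has an interval clear of 0.

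The 10 genes did not vary together across libraries. Relative to each gene's mean, SRXN1 was 0.99 higher in MST3 replicate 1 on the log2 scale, where GCLC (-0.13), GCLM (-0.13) and NFE2L2 (-0.15) were at or near their lowest. In MST3 replicate 3, KEAP1 (0.31), HMOX1 (0.22), OSGIN1 (0.21) and SRXN1 (0.43) were high while GCLC (-0.16), SLC7A11 (-0.16) and TXNRD1 (-0.13) were low. HMOX1 (-0.36), OSGIN1 (-0.35) and SRXN1 (-0.68) were lowest in vector replicate 2.

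**Figure D3:**
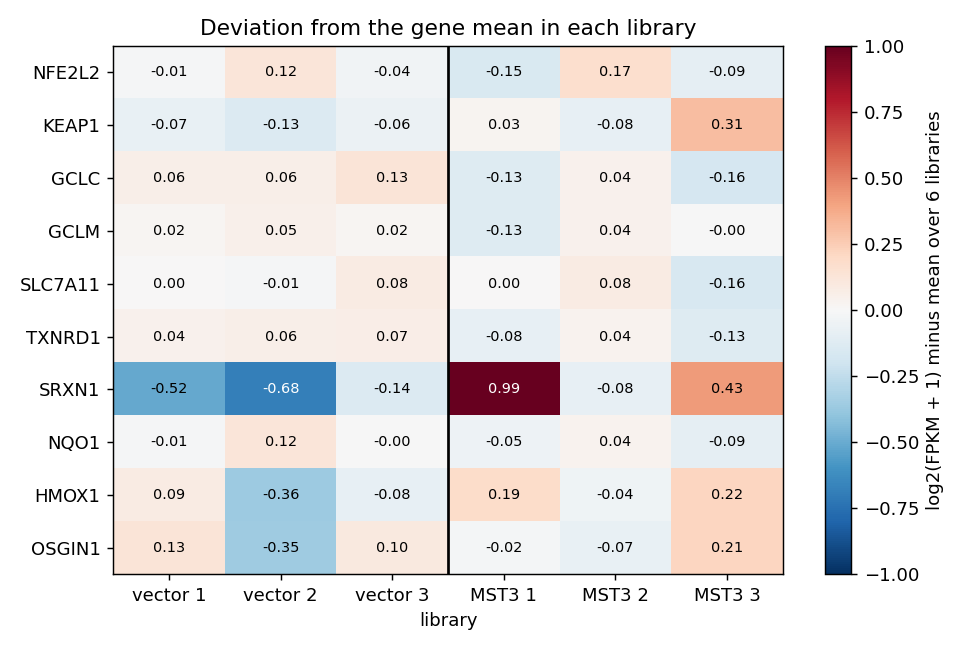
Deviation of each gene (rows) from its own mean over the 6 libraries (columns), in units of log2(FPKM + 1), red above and blue below the mean. SRXN1 ranges from -0.68 in vector replicate 2 to 0.99 in MST3 replicate 1, and no library has all 10 genes on the same side.

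The direction of the group difference went with the base composition of the transcripts, a property not used to choose the genes. The 4 genes that were higher in MST3 libraries had GC contents of 53.6% (SRXN1), 58.1% (HMOX1), 60.3% (KEAP1) and 63.4% (OSGIN1) in their longest GENCODE 29 transcript. The 6 lower genes had 35.4% (SLC7A11) to 46% (NQO1). Over the 12933 tested genes with a GC value the same trend was present, with 23.4% of genes under 40% GC and 81.2% of genes of at least 60% GC higher in the MST3 group. Median log2 differences were -0.075 and 0.13 in these classes. Spearman's rho between GC content and log2 difference was 0.65 over the 10 genes and 0.44 over all, where points share the same 6 libraries and are not independent. The trend differed between libraries, and the rho between GC content and the deviation of a gene was 0.70 in MST3 replicate 3, -0.51 in MST3 replicate 2 and -0.51 in vector replicate 2, against -0.12 to 0.12 in the other 3.

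When the dependence on GC content and gene length was taken out library by library, an alternative added after the data were seen, the KEAP1 difference came to 0.064, that of HMOX1 to 0.12 and that of GCLC to -0.075. The sign turned for NFE2L2 (0.019), GCLM (0.013), SLC7A11 (0.037) and OSGIN1 (-0.056), so that 6 genes were higher and the median was 0.016. SRXN1 stayed at 0.83 (95% interval 0.22 to 1.43; unadjusted p = 0.0144, adjusted p = 0.662 by limma). Its GC content of 53.6% falls in the class from 50 to 55%, whose median difference was 0.0054. A class median does not give the spread within the class, and the source of the SRXN1 difference was not tested. In the plot of difference against GC content the 6 filled points under 50% GC lie below 0 and the 4 above 50% lie above 0, with no steady rise within either set. The open points lie nearer to 0 for all 10 genes, by the smallest share of its value for SRXN1.

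**Figure D4:**
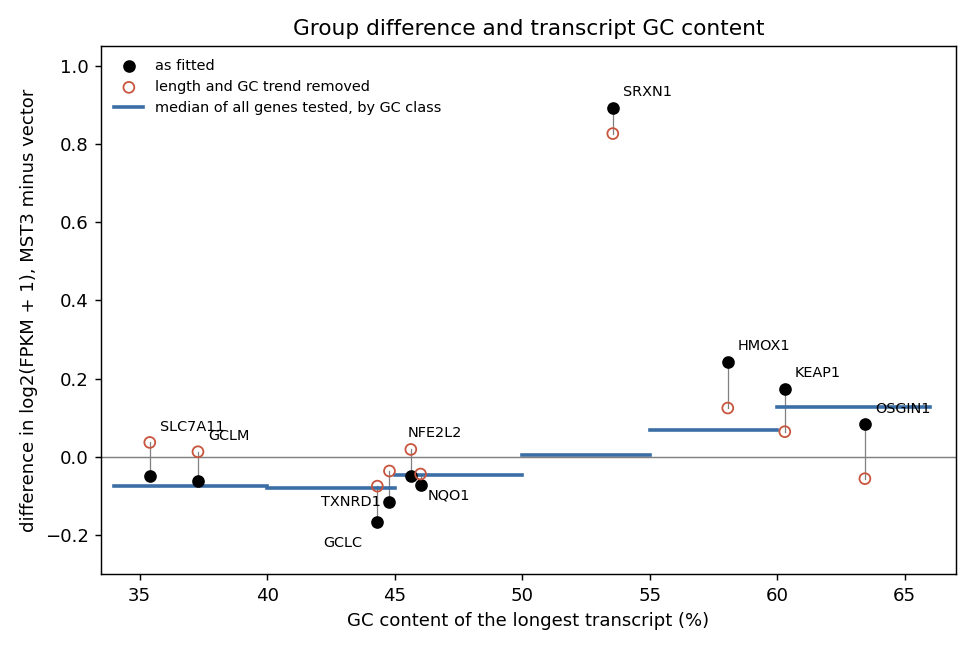
Difference in log2(FPKM + 1), MST3 minus vector, against GC content of the longest transcript (%) for each gene, as fitted (filled) and with trends in GC content and length taken out (open), with the median of all genes tested in each GC class as blue lines. The class medians run from -0.075 under 40% to 0.13 at 60% and above, and SRXN1 lies at 0.89 and 0.83.

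Other genes of the pathway were taken from lists by role. Of 74 regulators and further targets 58 were tested, 23 higher and 35 lower, with a median log2 difference of -0.023, and 0 passed limma over all genes. At an unadjusted p under 0.05 there were 2 of these, MAFK and MGST1, where 5.38% of all genes tested lay under that value. The groups did not overlap for 3 higher genes (GSTP1, BLVRA and SLC48A1) and 6 lower ones (FBXW11, EP300, GSK3B, BACH2, MGST1 and AKR1B1) of the 58, against 5.19% higher and 6.7% lower over all genes tested. Among 21 tested regulators and partners 8 were higher and 13 lower. MAFK, a small MAF partner of NRF2, measured 11.7, 10.9 and 12.3 FPKM with vector and 17.6, 12.1 and 18.7 FPKM with MST3 (log2 difference 0.42, SE 0.16; unadjusted p = 0.0311, adjusted p = 0.719), with MST3 replicate 2 again inside the vector range. Corrected for GC content and length it was 0.29. The other small MAFs differed by 0.087 (MAFG) and 0.041 (MAFF), and their groups overlapped.

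The repressor BACH1 measured 5.22, 5.15 and 4.74 FPKM with vector and 4.01, 4.96 and 4.48 FPKM with MST3 (log2 difference -0.14, 95% interval -0.35 to 0.069). CUL3, the ligase scaffold, differed by -0.010, and SQSTM1, the autophagy receptor that can draw KEAP1 away from NRF2, had 31.2 and 33.7 FPKM (0.11, 95% interval -0.11 to 0.33). FBXW11, a receptor subunit of the other ligase that degrades NRF2, had 18.5 and 16.8 FPKM, and its groups did not overlap (adjusted p = 0.719). PGAM5 measured 22.5, 20.7 and 23.5 FPKM with vector and 25.8, 21.8 and 31.2 FPKM with MST3, with the same order over the MST3 replicates as KEAP1. That order is not particular to this pair. HMOX1, MAFK, MAFG and SQSTM1 had it too, as did the rho between GC content and deviation in the MST3 libraries. The related factors NFE2L1 (mean 39.7 FPKM) and NFE2L3 (10.2 FPKM) were both expressed, NFE2L1 at a higher level than NFE2L2.

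Among glutathione and thioredoxin genes beyond the 10, 7 of 13 tested were higher and 6 lower (median 0.020). MGST1, a membrane glutathione transferase, averaged 9.43 ± 0.606 FPKM with vector and 8.09 ± 0.471 with MST3 (SD, n = 3; log2 difference -0.20, unadjusted p = 0.0451, adjusted p = 0.719 by limma). GSTP1, an abundant cytosolic transferase, had 224 ± 4.08 and 241 ± 13.6 FPKM (SD, n = 3), and GSS, glutathione synthetase, 11 and 12 FPKM. The abundant PRDX1, TXN and GSR stood at 383, 170 and 77.9 FPKM over the 6 libraries, and their log2 differences were -0.11, -0.021 and -0.029. GSTM1 and GSTM3 were listed at 0 in every library.

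NADPH supply genes, whose enzymes feed both branches with reducing power, split into 2 higher and 4 lower of 6 (median -0.053). IDH1 had 25.9 and 23 FPKM, ME1 26.9 and 23.7, and TALDO1 53.2 and 58.1 in vector and MST3 libraries, and the groups overlapped for each. Haem and iron genes split into 3 and 3 of 6 (median 0.057). BLVRA, the biliverdin reductase that acts after haem oxygenase, averaged 12.7 ± 0.873 FPKM with vector and 15.2 ± 1.71 with MST3 (SD, n = 3; log2 difference 0.24, unadjusted p = 0.0529, adjusted p = 0.719 by limma) with groups that did not overlap. Those of SLC48A1, a haem transporter, did not overlap either (3.7 and 4.09 FPKM), while BLVRB (51.6 and 58.1 FPKM) overlapped. The ferritin chains FTL and FTH1 stood at 2079 and 488 FPKM and differed by -0.076 and -0.0016.

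Detoxification and export genes had 3 higher and 9 lower of 12 tested (median -0.065). CBR3, a carbonyl reductase, measured 1.41, 0.699 and 1.03 FPKM with vector and 1.45, 1.13 and 2.2 FPKM with MST3, and AKR1B1, aldose reductase, 15.7 and 14.5 FPKM, with adjusted p values of 0.719 and 0.73 by limma. ALDH3A2, a fatty aldehyde dehydrogenase, had 16.1 and 14.9 FPKM. The aldo-keto reductases AKR1B10, AKR1C1, AKR1C2 and AKR1C3, which are often read as NRF2 targets in human cells, were at 0.302, 0.209, 0.0555 and 0.544 FPKM and were not tested. These paralogs can share reads. CBR1 and UGT1A6 were listed at 0 in every library, which need not mean an absent mRNA, since the treatment of shared reads is not given. ATF4 also drives SLC7A11, and of 9 tested genes from a list of ATF4 and its targets 5 were higher and 4 lower (median 0.029). ATF3 measured 12.5, 12.1 and 11.9 FPKM with vector and 10.6, 10.6 and 10.9 FPKM with MST3 (log2 difference -0.17, SE 0.070; unadjusted p = 0.0437, adjusted p = 0.719 by limma). ASNS and DDIT4 differed by -0.077 and 0.095.

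**Figure D5:**
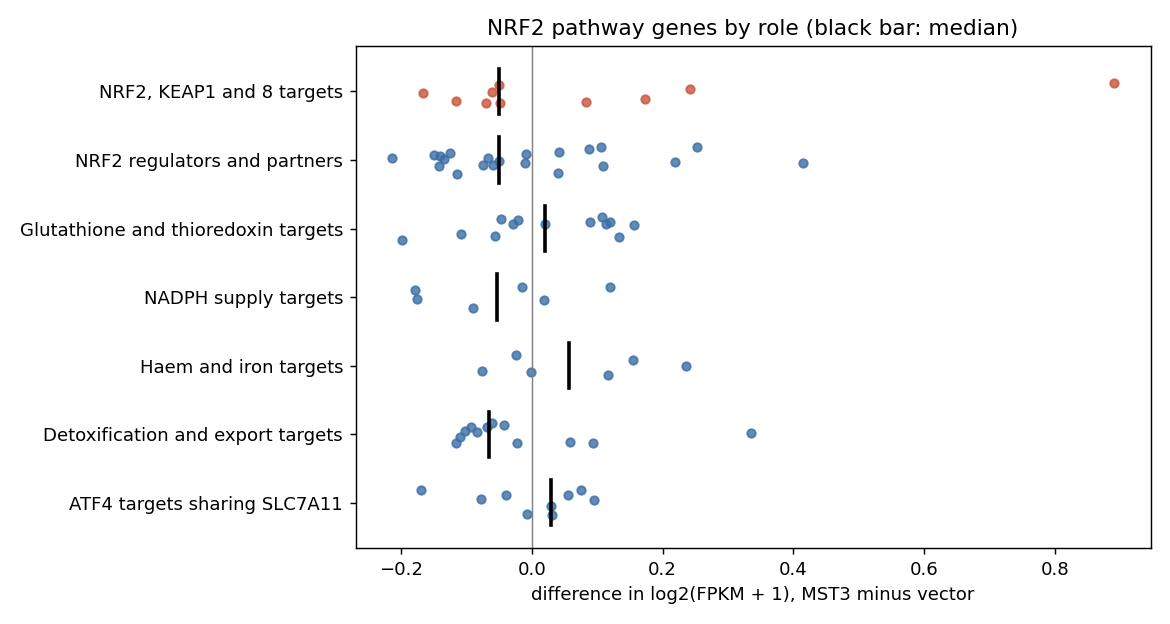
Difference in log2(FPKM + 1), MST3 minus vector, for each tested gene (points) of the 10 genes (red) and of the other lists by role (blue), with list medians as black bars. List medians lie between -0.065 and 0.057, and SRXN1 (0.89) lies farther out than any other gene of the lists.

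The genes most like NFE2L2, KEAP1 and SRXN1 over the 6 libraries were found as the 3 protein-coding genes with the smallest root mean square difference between centred log2(FPKM + 1) profiles. For NFE2L2 these were DCAF17, C2CD5 and TENT2, at distances of 0.0098, 0.0189 and 0.0191, where NFE2L2 itself varied by 0.111 around its mean. For KEAP1 they were CLCN7, TSEN54 and LONP1 (0.0169 to 0.0199, own variation 0.147). For SRXN1 they were ARL2BP, DNPH1 and FKBP2, at the larger distances of 0.153 to 0.169 (own variation 0.567). DNPH1 measured 16.9, 13.6 and 16.7 FPKM with vector and 42.2, 16.4 and 26.4 FPKM with MST3, so it shared with SRXN1 the order of the MST3 replicates. With 6 libraries and 13036 genes, close profiles are a description only.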

How the data were processed

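RNA sequencing libraries of HCT116 cells (3 vector, 3 MST3 overexpression) were analysed from 1 table of FPKM values that the authors deposited, scaled per library. HISAT2 is named per the submitters' processing notes with no version, and the sources used here name no counting program, strand setting or annotation. All 58735 Ensembl entries had the coordinates of GENCODE 29 on GRCh38. Products of FPKM and gene length were whole multiples of a step in 100% of values (tolerance 0.01), which gave the reads.

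The test was limma 3.58.1 in R 4.3.3 on log2(FPKM + 1), with an intensity trend and all 6 libraries, two-sided, with Benjamini-Hochberg adjustment over the 13036 genes that averaged at least 1 FPKM and a threshold of 0.05. Fold changes on this scale understate those of low genes. The members and lists were chosen with earlier results of these data known. Named beyond the 10 were STK24, 6 fixed regulators, the 3 with the smallest p of each list and the 3 nearest profiles. Others (PRDX1, TXN, GSR, SLC3A2, NFE2L1, NFE2L3, EP300, GSK3B, BACH2, the ferritins, genes near 0 and the overlapping genes) were picked with their values known. Alternatives covered pseudocount, filter, scaling, variance model, weights, replicate block and each library left out. Plots used Python 3.11.15 and matplotlib 3.10.9.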

Additional observations from a re-analysis of the deposited data

How the results depend on the processing

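STK24 stayed the only gene called (1) under all 21 alternatives, 17 planned and 4 added after the data were seen, and no NRF2 gene passed in any of them. The count at an unadjusted p under 0.05, 701, ranged from 298 to 2554 over the libraries left out. SRXN1, KEAP1, HMOX1, GCLC and TXNRD1 kept their direction in every alternative that tested them, and SRXN1 and SLC7A11 were not tested with a minimum of 5 FPKM. SRXN1 ranged from 0.36 to 1.22, KEAP1 from 0.0054 to 0.26, HMOX1 from 0.080 to 0.35, GCLC from -0.23 to -0.042 and TXNRD1 from -0.16 to -0.020.

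With single libraries left out, the median over the 10 genes (-0.050) ranged from -0.10 to 0.0016, NFE2L2 from -0.14 to 0.014, SLC7A11 from -0.10 to 0.019, OSGIN1 from -0.074 to 0.17, MAFG from -0.0040 to 0.22, MAFF from -0.014 to 0.10, CUL3 from -0.084 to 0.072 and DDIT4 from -0.030 to 0.18. With length and GC trends removed the median was 0.016, NFE2L2 0.019, GCLM 0.013, SLC7A11 0.037, OSGIN1 -0.056, MAFF -0.055, CUL3 0.090, GSTP1 -0.058 and DDIT4 -0.031. Without MST3 replicates 1 and 3 (the lone MST3 library being assumed to vary like the vector group), 7 of the 10 were higher, the median was 0.0093, NFE2L2 0.14, NQO1 0.00065, GCLM 0.013, SLC7A11 0.059, OSGIN1 -0.030, SQSTM1 -0.038, MAFG -0.17, CUL3 0.14, PGAM5 -0.026, IDH1 0.042, BLVRB -0.13 and DDIT4 -0.078. CUL3 was 0.020 with equal sums and 0.023 by limma voom, and with sample weights OSGIN1 was -0.0074 and MAFF -0.0035. The cause was not tested.

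With the replicate number as a replicate block SRXN1 kept 0.89 (adjusted p = 0.482 by limma) and HMOX1 kept 0.24. The unadjusted p of HMOX1 by limma was 0.028 with the block and 0.11 without it, and its adjusted p with the block was 0.482. STK24 alone was called (1) with the block, and 1338 genes had an unadjusted p under 0.05. Same-numbered libraries had deviations correlated at 0.016, 0.23 and 0.035, not all over 0.1, so the numbers were not used as pairs. The value of 0.23, for replicate 2, was the highest of the 9 pairings across groups, and vector replicates 1 and 3 correlated best with another number (0.12 and 0.057). Of the 10 genes SRXN1 rested on the fewest reads, 89.3 per vector library.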
